A study of Caenorhabditis elegans with 8 samples.

Results

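RNA sample 1 is 1 of 4 RNA samples from sorted Caenorhabditis elegans neurons, and it was set against the other 3, RNA samples 2 to 4. Each RNA sample had been divided between 2 library kits, SoLo Ovation and SMARTseq V4 followed by Nextera XT, so that RNA sample 1 holds 2 of the 8 libraries and RNA samples 2 to 4 hold 6. The libraries were assigned by the RNA sample number in their labels, and RNA sample 1 was singled out with earlier results of these data known. All 4 RNA samples came from strain OH10689, in which the integrated array otIs355 puts a nuclear red fluorescent protein (2xNLS-TagRFP) under a promoter of rab-3, a synaptic vesicle gene active in nearly all neurons. The labels call all of them untreated, describe the same growth on E. coli NA22 and sorting by flow cytometry, and give no stage or age of the worms. They do not say if separate cultures, sorts or days lie behind the 4 numbers. The p-values below cover only the spread among RNA samples 2 to 4, part or all of which may be technical. RNA sample 1 has 1 library per kit, so its own spread was not measured.

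The nervous system of C. elegans is made of neuron classes with known marker genes. Ciliated sensory neurons carry cilia built by intraflagellar transport and hold most of the chemoreceptors, touch receptor neurons have a distinctive microtubule bundle made by the mec genes, and cholinergic, GABAergic and other classes are named for their transmitter. Heat shock genes are switched on by the factor HSF-1 when proteins misfold, cuticle collagens are made by the hypodermis in waves that follow the molts, and the genes of the heterochronic pathway time the larval stages.

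SoLo libraries held 2985097 gene counts for RNA sample 1 and 2354681 to 3454199 for RNA samples 2 to 4, and SMARTseq libraries held 7099497 against 4510927 to 6723049. Within a kit, RNA sample 1 stood apart from the other 3. The chi-square of the counts per gene, for genes with at least 20 reads in a pair of libraries, was 30.2 to 33.4 between RNA sample 1 and each of RNA samples 2 to 4 in SoLo, and 2.29 to 3.45 among RNA samples 2 to 4. In SMARTseq it was 98.7 to 113 with RNA sample 1 and 9.83 to 11.9 among the other 3. Pan-neuronal genes, which mark the labelled cell type, were present in all 8 libraries. Their summed level was 35437 CPM (read counts scaled to library size) in RNA sample 1 and 26411 to 27143 CPM in RNA samples 2 to 4 in SoLo, and 55637 against 42650 to 45749 CPM in SMARTseq. The higher sum was not shared by all members. Of the 30 genes, 9 lay above all of RNA samples 2 to 4 in both kits and 10 lay below them.

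A gene was called when edgeR's quasi-likelihood test gave a Benjamini-Hochberg adjusted p under 0.05 in each kit with the same sign. Of 11378 genes tested, 769 (6.76%) were higher and 673 (5.91%) were lower in RNA sample 1, and 822 of the 1442 called genes differed at least 2-fold in both kits. In each kit 1 library stood against 3, so the lone library was assumed to vary like the others. In SoLo by itself 899 genes (7.9%) were higher and 776 (6.82%) lower, and in SMARTseq by itself 1546 (13.6%) were higher and 1581 (13.9%) lower. RNA sample 1 lay above all of RNA samples 2 to 4 in both kits in 24.4% of the genes tested and below them in 24.3%. Over all genes tested, the median log2 fold change was -0.06 in SoLo and -0.04 in SMARTseq. The kits' log2 fold changes had a Pearson r of 0.662 over genes, as a description, since genes are not replicates and both kits read the same RNA. Of the fits that left out 1 of RNA samples 2 to 4, that without RNA sample 3 gave the fewest calls, 492 higher and 395 lower genes, of which 481 and 390 were among those called with all libraries. Counts of called members in the lists below are to be read beside the 6.76% and 5.91%, and a single call in a list can be near these shares. A count of 0 higher or 0 lower members in a list is edgeR's. DESeq2 also gave 0 in such cases, except for 1 higher gene each in the touch receptor and axon guidance lists and 1 lower ribosomal RNA gene. Fold changes are log2 of RNA sample 1 over RNA samples 2 to 4, given with their SE, and CPM values are not corrected for gene length.

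**Figure D1:**
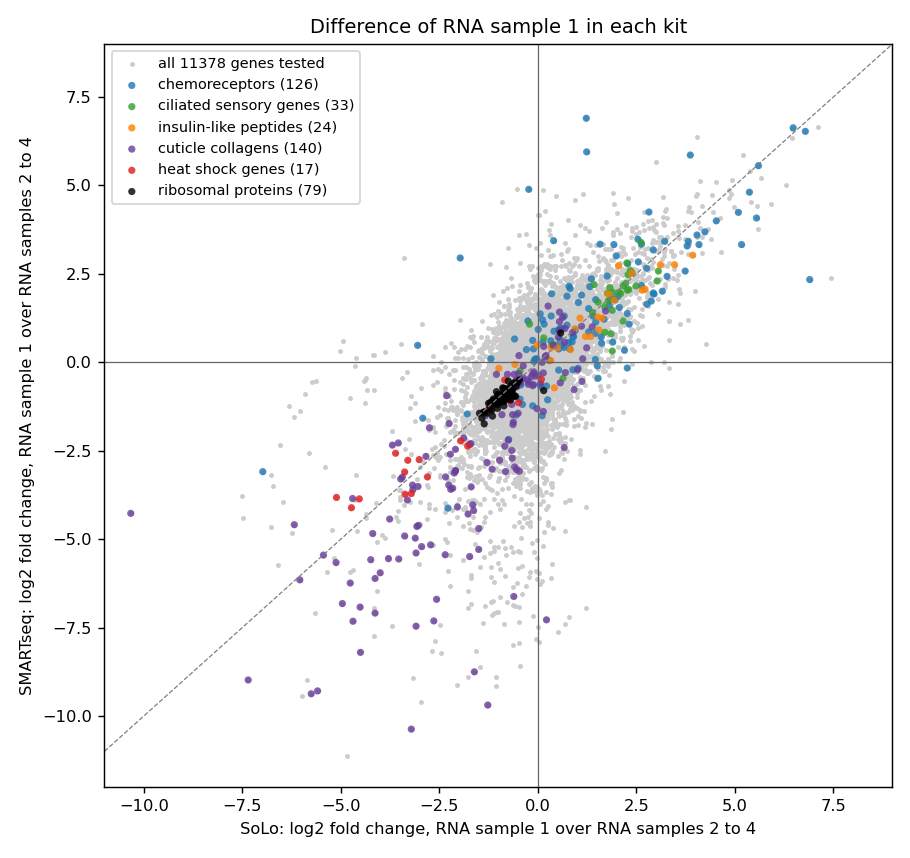
Log2 fold change of RNA sample 1 over RNA samples 2 to 4 in SoLo (horizontal axis) and SMARTseq (vertical axis) for the 11378 genes tested (grey), with members of 6 gene lists in colour. Ciliated sensory and insulin-like genes lie mostly at upper right, and heat shock, collagen and ribosomal protein genes at lower left. The dashed line marks equal values in both kits.

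Genes of ciliated sensory neurons were higher in RNA sample 1. Of 33 ciliated sensory genes tested, 19 were higher and 0 lower in both kits, with a median log2 fold change of 1.89 in SoLo and 1.95 in SMARTseq. RNA sample 1 lay above all of RNA samples 2 to 4 in both kits in 28 of the 33. For bbs-5, a subunit of the BBSome that sorts ciliary cargo (chromosome III, 10258831 to 10261782, build WBcel235), the level in SoLo was 31 CPM in RNA sample 1 and 5.71, 5.8 and 4.89 CPM in RNA samples 2, 3 and 4. In SMARTseq it was 307 CPM against 58.4, 69.9 and 77.6 CPM. RNA sample 1 lay far above the other 3 in each kit, and the bbs-5 log2 fold changes were 2.49 ± 0.25 (adjusted p = 9.09e-05) and 2.16 ± 0.18 (adjusted p = 1.45e-05). Among the intraflagellar transport genes, dyf-2 had 102 CPM against 16.8, 23.2 and 17.8 CPM in SoLo, and 362 CPM against 77.5, 57.6 and 53 CPM in SMARTseq. The called genes spanned the parts of the transport machinery. They included the kinesin motor osm-3 (1.77 ± 0.24 in SoLo, 1.95 ± 0.24 in SMARTseq), the dynein heavy chain che-3 (2.29 ± 0.49 and 2.48 ± 0.48), the transport proteins osm-1, osm-5, osm-6, che-13 and daf-10, the BBSome genes bbs-1, bbs-8 and bbs-9, and the transition zone gene nphp-4. The remaining 14 members were not called. Among them daf-19, the transcription factor that switches on ciliary genes, had log2 fold changes of 0.15 ± 0.18 in SoLo (adjusted p = 0.705) and 0.69 ± 0.16 in SMARTseq (adjusted p = 0.0102). The subunit tax-4 of the cyclic nucleotide-gated sensory channel had a log2 fold change of 2.23 in each kit with adjusted p of 0.0866 and 0.0563, whereas its partner tax-2 was called (2.35 ± 0.50 and 2.59 ± 0.45). Leaving out 1 of RNA samples 2 to 4 ended 5 of the 19 calls. These were osm-12 without RNA sample 4, tax-2 without RNA sample 3 (2.24 in SoLo and 2.60 in SMARTseq), and che-13, dyf-5 and bbs-9 without 3 or 4. In bulk RNA, more cells of a type and more RNA per cell cannot be told apart.

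**Figure D2:**
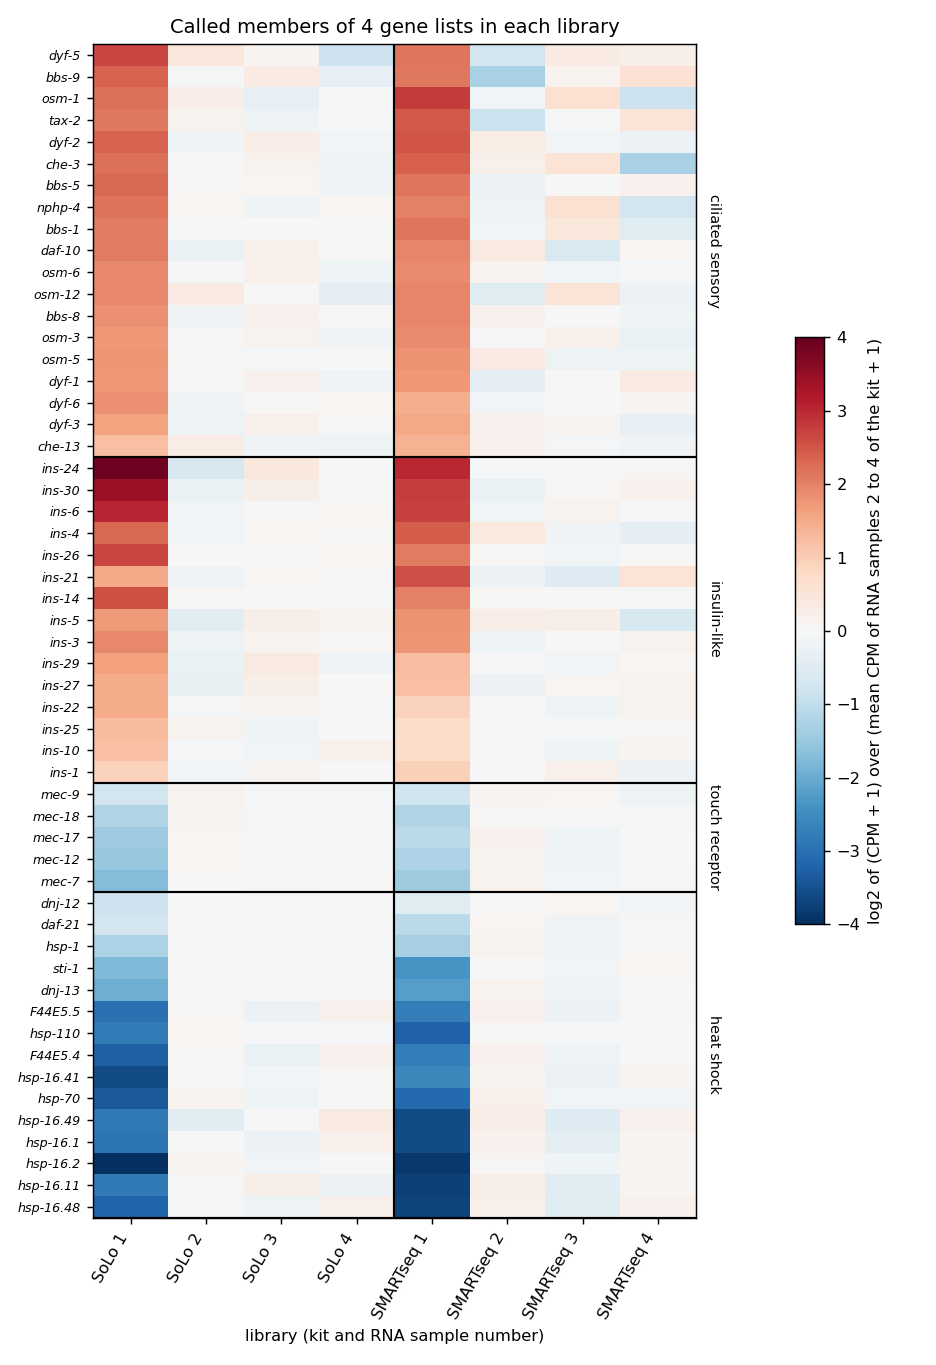
Called members of the ciliated sensory, insulin-like, touch receptor and heat shock lists (rows) in each of the 8 libraries (columns, RNA sample 1 first within each kit). Colour is log2 of the CPM plus 1 over the mean CPM of RNA samples 2 to 4 of the same kit plus 1. RNA sample 1 is red throughout the 19 ciliated sensory and 15 insulin-like genes and blue throughout the 5 touch receptor and 15 heat shock genes, while RNA samples 2 to 4 stay near white.

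Markers of single sensory classes were among the genes with the largest increases. The sulfotransferase ssu-1 and the thioredoxin trx-1, both known from the ASJ neurons, had few reads in RNA samples 2 to 4. For ssu-1 (chromosome V, 20128287 to 20133263) the level in SoLo was 147 CPM in RNA sample 1 and 1.07, 0.242 and 2.1 CPM in RNA samples 2 to 4, and in SMARTseq 280 CPM against 4.49, 0.883 and 3.5 CPM. Its log2 fold change was 7.11 ± 0.53 in SoLo (adjusted p = 1.15e-05) and 6.64 ± 0.44 in SMARTseq (adjusted p = 2.90e-06). For trx-1 the values were 41.8 CPM against 2.5, 1.21 and 0.349 CPM, and 124 CPM against 4.96, 1.24 and 4.58 CPM. The TGF-beta ligand daf-7, made by the ASI neurons, had 494 CPM against 136, 165 and 166 CPM in SoLo and 2267 CPM against 748, 813 and 772 CPM in SMARTseq, log2 fold changes of 1.67 ± 0.12 and 1.54 ± 0.12. The G protein subunit gpa-4 made up, with ssu-1, trx-1, daf-7 and the insulin ins-6, the 5 of 7 ASI and ASJ genes that were higher, and it lost its call without RNA sample 3 or 4. The insulin daf-28, which the same neurons make, was not called, with 168 CPM against 137, 183 and 190 CPM in SoLo and 149 CPM against 97.8, 110 and 109 CPM in SMARTseq (0.49 ± 0.18, adjusted p = 0.07).

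The olfactory and thermosensory classes had members that were higher and members that were not called. The diacetyl receptor odr-10 of the AWA neuron (1 AWA gene tested) had 286 CPM in RNA sample 1 and 3.57, 7.73 and 8.73 CPM in RNA samples 2 to 4 in SoLo, and 295 CPM against 5.2, 5.3 and 11 CPM in SMARTseq. The odr-10 log2 fold changes were 5.39 ± 0.34 and 5.40 ± 0.33 (adjusted p = 3.83e-06 and 1.78e-06). Of 4 genes of the AWB and AWC neurons, 3 were higher. The neuropeptide gene nlp-1 had log2 fold changes of 0.85 ± 0.13 and 0.65 ± 0.13, while the guanylyl cyclase odr-1 lost its call without RNA sample 3 (1.95 in SoLo and 3.06 in SMARTseq) and the homeobox gene ceh-36 lost its call without any 1 of the 3. In the AFD thermosensory neuron the receptor guanylyl cyclases gcy-8 and gcy-23 were higher, gcy-23 at 118 CPM against 18.9, 14 and 17.1 CPM in SoLo and 374 CPM against 62.2, 93.6 and 54.4 CPM in SMARTseq. The third AFD gene called, srtx-1, lost its call without RNA sample 4 (2.67 and 3.20). The AFD cyclase gcy-18 went the other way without passing the test, at 24.4 CPM against 42.1, 32.6 and 32.1 CPM in SoLo and 50.3 CPM against 74, 67.8 and 88.6 CPM in SMARTseq (log2 fold changes of -0.54 and -0.61, adjusted p = 0.244 and 0.0932). Of the 10 genes listed for the ASK, ADL and ASH neurons 2 passed the filter on reads, and osm-10, needed for osmotic avoidance, was higher (3.19 ± 0.25 and 3.11 ± 0.21). Of 6 ASE genes edgeR called 0 in both kits, with 0 at an unadjusted p under 0.05 in both kits and 0 by DESeq2. The homeobox gene cog-1 of that list had log2 fold changes of 0.44 in SoLo (adjusted p = 0.197) and 0.75 in SMARTseq (adjusted p = 0.0171).

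Genes of the gas-sensing and labial sensory neurons were called in part. Of 12 genes of the URX and BAG neurons 3 were higher, with the soluble guanylyl cyclase gcy-37 at 1.27 ± 0.20 in SoLo and 1.46 ± 0.18 in SMARTseq. The other two, gcy-9 and flp-17, lost their calls without RNA sample 4, gcy-9 also without RNA sample 2. Without RNA sample 4 the log2 fold changes were 1.30 in SoLo and 0.87 in SMARTseq for gcy-9, and 0.47 and 0.65 for flp-17. Of 4 genes of the IL2 neurons, the degenerin-like channel genes egas-1 and egas-4 were higher, egas-4 at 34.9 CPM against 8.56, 13 and 5.94 CPM in SoLo and 227 CPM against 73, 61.3 and 80.8 CPM in SMARTseq. The call of egas-1 was lost without RNA sample 3 or 4.

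**Figure D3:**
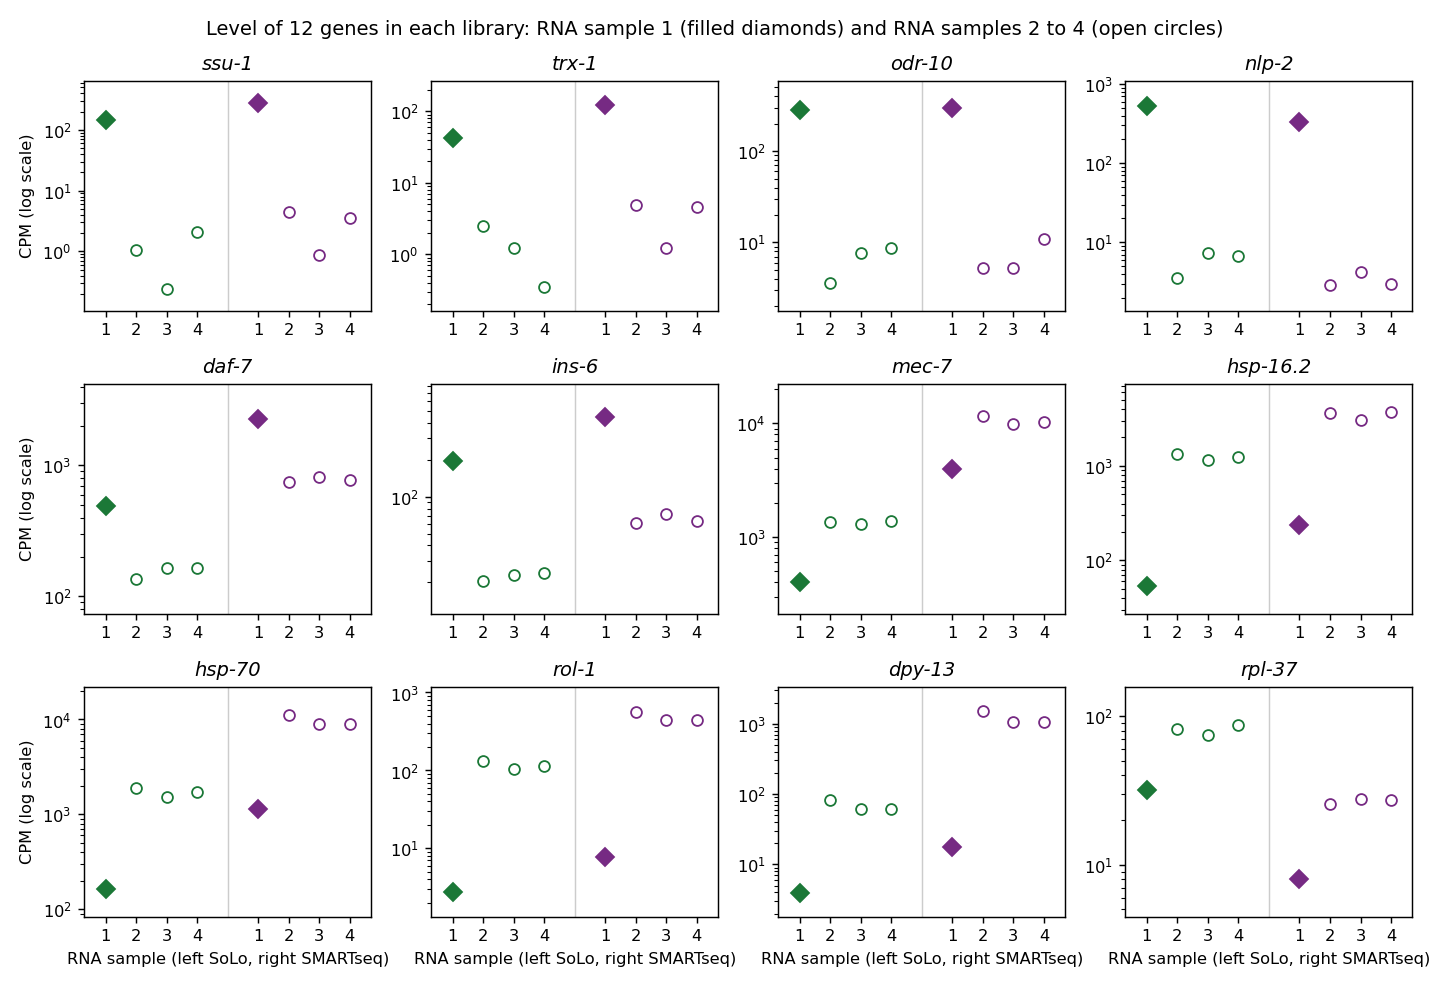
Level in CPM (log axes) of 12 genes in each library, with SoLo at left and SMARTseq at right of each panel, RNA sample 1 as filled diamonds and RNA samples 2 to 4 as open circles. In the first 6 panels RNA sample 1 lies above the other 3 in both kits, as for ssu-1 at 147 and 280 CPM, and in the last 6 it lies below them, as for hsp-16.2 at 54 and 238 CPM.

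Chemoreceptors, the large families of G protein-coupled receptors of sensory neurons, were read in far greater number in RNA sample 1. The table listed 1628 of them, of which 126 passed the filter on reads, and of those 25 were higher and 1, srh-246, was lower. DESeq2, which tested 347 of them with its own filter, called 93 higher and 1 lower. Over all 12599 genes it tested, 831 were higher and 531 lower. Its filter goes by the mean count over all libraries, so receptors read mostly in RNA sample 1 could pass through that sample. The 93 against 1 is thus in part set by the filter. The median log2 fold change of the 126 was 1.02 in SoLo and 1.15 in SMARTseq. All libraries were thinned to 2354681 counts to compare detection. With at least 5 reads, 481 chemoreceptors were then detected in RNA sample 1 and 103, 92 and 91 in RNA samples 2, 3 and 4 in SoLo, and 704 against 155, 169 and 164 in SMARTseq. The number of other protein-coding genes detected was 11052 against 10560 to 10747 in SoLo and 10816 against 10407 to 10767 in SMARTseq. The chemoreceptors' share of all counts was 0.432% against 0.131% to 0.136% in SoLo, and 1.38% against 0.167% to 0.196% in SMARTseq. An exact permutation test of 1 RNA sample against 3 cannot reach p = 0.05, so no test is given for these numbers and shares.

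**Figure D4:**
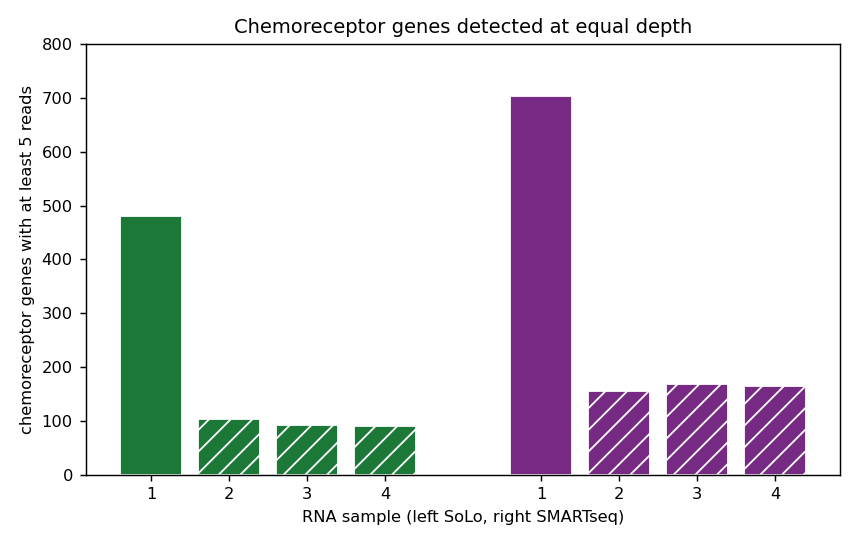
Number of the 1628 chemoreceptor genes with at least 5 reads after each library was thinned to 2354681 counts, by RNA sample (SoLo at left, SMARTseq at right, RNA samples 2 to 4 hatched). RNA sample 1 has 481 and 704 such genes, and the other 6 libraries have 91 to 169.

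Among single receptors, srd-27 (chromosome V, 15803379 to 15804512) had 150 CPM in RNA sample 1 and 0.713, 1.69 and 1.4 CPM in RNA samples 2 to 4 in SoLo, and 1797 CPM against 15.6, 22.6 and 19.4 CPM in SMARTseq. Its log2 fold changes were 6.79 ± 0.25 (adjusted p = 1.34e-07) and 6.53 ± 0.17 (adjusted p = 6.23e-09). For str-44, RNA sample 1 had 38.8 and 461 CPM, and RNA samples 2 to 4 had 0, 0.966 and 0 CPM in SoLo and 0, 5.83 and 8.08 CPM in SMARTseq. Its SoLo log2 fold change was 6.48 ± 1.03, and 10.22 without RNA sample 3, which held all of the SoLo reads of RNA samples 2 to 4. The receptor srw-10 had log2 fold changes of 5.60 ± 0.65 and 5.56 ± 0.42, and 7.25 in SoLo without RNA sample 4. Of the 25 higher receptors, 14 lost their call without 1 of RNA samples 2 to 4, and 11 kept it without each. The lower receptor srh-246 had 0 reads in RNA sample 1 and 37 in RNA samples 2 to 4 in SoLo, at least 4.54-fold lower with a floor of 3 counts. Its call was lost without RNA sample 3 or 4, where SMARTseq gave log2 fold changes of -2.89 and -2.96.

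Chemoreceptor families shared the direction in both kits with few exceptions. In 20 of 22 families, all but srn and srt, the summed level was higher in RNA sample 1 than in each of RNA samples 2 to 4 in both kits. The str family summed to 379 CPM against 45.6 to 49 CPM in SoLo and 2093 CPM against 151 to 217 CPM in SMARTseq, and the srbc family to 94 CPM against 11.8 to 13.3 CPM and 421 CPM against 11.1 to 14.1 CPM. The single srn gene had 0 to 3.71 CPM over all libraries. The srt family summed to 141 CPM against 326 to 371 CPM in SoLo and to 616 CPM against 178 to 203 CPM in SMARTseq. One gene, srt-42, set the srt sum of SoLo. It had 38.2 CPM in RNA sample 1 and 292, 326 and 330 CPM in RNA samples 2 to 4 in SoLo, and 850 reads of 7099497 against 495 of 5342316, 518 of 6723049 and 388 of 4510927 in SMARTseq. Its log2 fold changes were -3.05 ± 0.20 in SoLo and 0.48 ± 0.16 in SMARTseq, opposite in direction. The annotation places srt-42 on the plus strand of chromosome V at 1807460 to 1809582, with 1584 bases between its start and the end of the heat shock gene hsp-16.41 on the same strand. Whether reads from the neighbour entered the srt-42 count was not tested.

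Many chemoreceptors did not pass the filter, which asks for reads in about as many libraries as a kit has, and some of these had most of their reads in RNA sample 1. No test was made on such genes, and they were picked by their reads in RNA sample 1. Of 35370 genes below the filter, 204 had at least 20 reads in both libraries of RNA sample 1, and 93 of these were chemoreceptors. Of all 46748 genes, tested or not, 1628 were chemoreceptors. Over all genes, 15 had at least 20 reads in both libraries of RNA sample 1 and 0 in the other 6, of which 9 were chemoreceptors. In the other direction, 0 genes had at least 20 reads in each of the other 6 and 0 in both libraries of RNA sample 1. That second count asks for reads in more libraries, so the 15 and the 0 are not on equal terms. The receptor srd-28 had 465 reads in SoLo and 9322 reads in SMARTseq in RNA sample 1 and 0 in all 6 others. With a floor of 3 counts over RNA samples 2 to 4, the SoLo level of RNA sample 1 was at least 421-fold higher. In SMARTseq the bound was at least 7236-fold. The nuclear receptor nhr-38 had 112 reads in SoLo and 2833 in SMARTseq, against 1, 0 and 1 and against 4, 18 and 4 reads. Near-identical copies among chemoreceptors could have had their reads split or dropped in counting, so levels of single receptors are uncertain.

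Insulin-like peptides, secreted ligands of the DAF-2 receptor made largely by sensory neurons, were higher in 15 of 24 members tested and lower in 0, with median log2 fold changes that correspond to 2.69-fold in SoLo and 2.14-fold in SMARTseq. The 40 members in the table summed to 3275 CPM against 1356 to 1625 CPM in SoLo and 10044 CPM against 3705 to 4136 CPM in SMARTseq. For ins-24, RNA sample 1 had 247 CPM in SoLo against 15.7 ± 5.94 CPM in RNA samples 2 to 4 (SD, n = 3), and 1557 CPM in SMARTseq against 183, 191 and 198 CPM. Its log2 fold changes were 3.93 ± 0.23 (adjusted p = 1.80e-06) and 3.03 ± 0.19 (adjusted p = 2.03e-06). The next largest were ins-30 (3.47 ± 0.19 and 2.76 ± 0.16) and ins-6 (3.11 ± 0.16 and 2.76 ± 0.14). For ins-6 the SoLo levels were 195 CPM in RNA sample 1 against 20.7, 23 and 23.8 CPM, and the SMARTseq levels were 444 CPM against 61, 71.7 and 63.8 CPM. The members that lay outside the called group included ins-17, at 593 CPM against 458, 505 and 445 CPM in SoLo, and ins-28. The calls of ins-21 and ins-25 were lost without any 1 of RNA samples 2 to 4 and that of ins-5 without RNA sample 3.

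Other neuropeptide genes were mostly not called, with more higher than lower among those that were. Of 30 FMRFamide-like flp genes 10 were higher and 1 was lower. The largest difference was flp-3, at 916 CPM against 224, 275 and 249 CPM in SoLo and 548 CPM against 173, 156 and 181 CPM in SMARTseq (1.87 ± 0.13 and 1.69 ± 0.13). The sleep peptide flp-11 of the RIS neuron had log2 fold changes of 1.25 ± 0.20 and 1.41 ± 0.19. Only flp-3, flp-11 and flp-21 of the 10 kept their calls without each of RNA samples 2 to 4, and the lower gene, flp-28, lost its call without any 1 of them. Of 37 nlp genes 9 were higher and 3 were lower. For nlp-2, a peptide precursor, the levels were 527 CPM against 3.57, 7.25 and 6.64 CPM in SoLo and 334 CPM against 2.84, 4.24 and 2.96 CPM in SMARTseq, log2 fold changes of 6.46 ± 0.23 and 6.59 ± 0.24. The lower nlp genes were nlp-17 (83.1 CPM against 398, 353 and 316 CPM in SoLo, -1.79 ± 0.17 in SMARTseq), nlp-20 (-0.63 ± 0.11 and -0.73 ± 0.11) and nlp-33, whose call was lost without RNA sample 2 (-2.01 in SoLo and -3.28 in SMARTseq). The called pan-neuronal genes included some with a part in peptide processing or storage. The prohormone convertase egl-3 had 8982 CPM against 5498, 5792 and 5760 CPM in SoLo and 6562 CPM against 3965, 3797 and 4262 CPM in SMARTseq, and the carboxypeptidase egl-21 and the dense core vesicle protein ida-1 were also called higher. Of 73 neuropeptide receptors 17 were higher and 0 lower, among them frpr-18 (1.62 ± 0.18 and 1.57 ± 0.18), and 14 of the 17 lost their call without 1 of RNA samples 2 to 4.

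Genes that most neurons share, and those of most non-sensory classes, were largely not called. Of 30 pan-neuronal genes 4 were higher (egl-3, egl-21, ida-1 and cab-1, which encodes a protein that binds AEX-3) and 1 was lower (the synapsin snn-1, lost without RNA sample 3 or 4), with medians of 0.03 in SoLo and 0.06 in SMARTseq. The acetylcholine vesicle transporter unc-17 had 388 CPM against 356, 398 and 425 CPM in SoLo, and its groups overlapped. Of 6 cholinergic, 5 serotonergic, 3 tyramine and octopamine, 6 PVD and FLP, 2 RIA and 7 pharyngeal neuron genes and 1 glutamatergic gene, edgeR called 0 in both kits and DESeq2 0. At an unadjusted p under 0.05 in both kits, 1 cholinergic, 1 tyramine and octopamine, 2 PVD and FLP and 1 pharyngeal neuron gene were above 0 in log2 fold change, and 1 serotonergic and 1 PVD and FLP gene below. Of 11 cholinergic motor neuron genes the receptor subunit acr-2 was lower (-0.54 ± 0.16 and -0.56 ± 0.13), a call lost without any 1 of RNA samples 2 to 4. Of 8 GABAergic genes flp-13 was higher (0.47 ± 0.11 and 0.38 ± 0.11), a call lost without RNA sample 2 or 4, while the GABA synthesis enzyme unc-25 had 712 CPM against 745, 757 and 761 CPM in SoLo (adjusted p = 0.652). Of 6 dopaminergic genes the transcription factor ast-1 was higher (0.83 ± 0.12 and 0.83 ± 0.11). The dopamine transporter dat-1 differed in SMARTseq (0.91 ± 0.17, adjusted p = 0.00282) and not in SoLo (0.02 ± 0.19, adjusted p = 0.966). Among 10 genes of the command interneurons, the homeobox gene unc-42 was higher (0.70 ± 0.14 and 0.73 ± 0.12), fax-1 was higher with a call lost without any 1 of RNA samples 2 to 4, and the glutamate receptor glr-1 was lower with a call lost without RNA sample 3 (-0.80 in SoLo and -1.04 in SMARTseq). The interneuron genes ttx-3 of AIY and ins-1 of AIA were higher, at 22.4 CPM against 6.42, 8.21 and 7.34 CPM in SoLo and 58.2 CPM against 25.1, 19.8 and 15.1 CPM in SMARTseq for ttx-3, lost without RNA sample 3, and at 0.94 ± 0.16 and 0.95 ± 0.16 for ins-1.

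Touch receptor genes went the other way from the ciliated sensory genes. Of 12 tested, edgeR called 5 lower in RNA sample 1 and 0 higher, and DESeq2 4 lower and 1, the transcription factor unc-86, higher (0.42 and 0.43 by edgeR, not called), and 9 of the 12 lay below all of RNA samples 2 to 4 in both kits, as did 24.3% of all genes tested. The beta-tubulin mec-7 (chromosome X) had 402 CPM in RNA sample 1 and 1371, 1293 and 1397 CPM in RNA samples 2 to 4 in SoLo, and 3931 CPM against 11680, 9794 and 10300 CPM in SMARTseq. Its log2 fold changes were -1.75 ± 0.12 (adjusted p = 7.46e-06) and -1.43 ± 0.12 (adjusted p = 1.28e-05). The alpha-tubulin mec-12 (-1.53 ± 0.12 and -1.22 ± 0.12), the tubulin acetyltransferase mec-17 (-1.47 ± 0.14 and -1.07 ± 0.13) and mec-18 (-1.21 ± 0.14 and -1.22 ± 0.13, 10.7% of its exon length shared with another gene) were lower as well, and mec-9 was lower with a call lost without any 1 of RNA samples 2 to 4. Lower tubulin RNA was not particular to this list. The alpha-tubulins tba-1 (-1.52 in SoLo and -1.42 in SMARTseq) and tba-2 (-1.37 and -1.51), outside the list, were also called lower. The tubulins tba-5 (1.38 and 2.23) and tba-6 (0.06 and -0.25) were not called. The channel subunit mec-4 had log2 fold changes of -0.83 ± 0.25 in SoLo (adjusted p = 0.0482) and -0.30 ± 0.22 in SMARTseq (adjusted p = 0.352). The transcription factor mec-3 had -0.65 ± 0.28 (adjusted p = 0.171) and -1.14 ± 0.22 (adjusted p = 0.00389). The channel protein mec-2, at 132 CPM against 121, 112 and 133 CPM in SoLo, had overlapping groups there. Of 23 axon guidance and adhesion genes 3 were lower, namely the secreted synapse organiser madd-4 (-0.88 ± 0.15 and -0.86 ± 0.14), the adhesion molecule sax-7 and the actin-binding unc-115. By edgeR 0 were higher, and DESeq2 called 1 higher, unc-73.

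**Figure D5:**
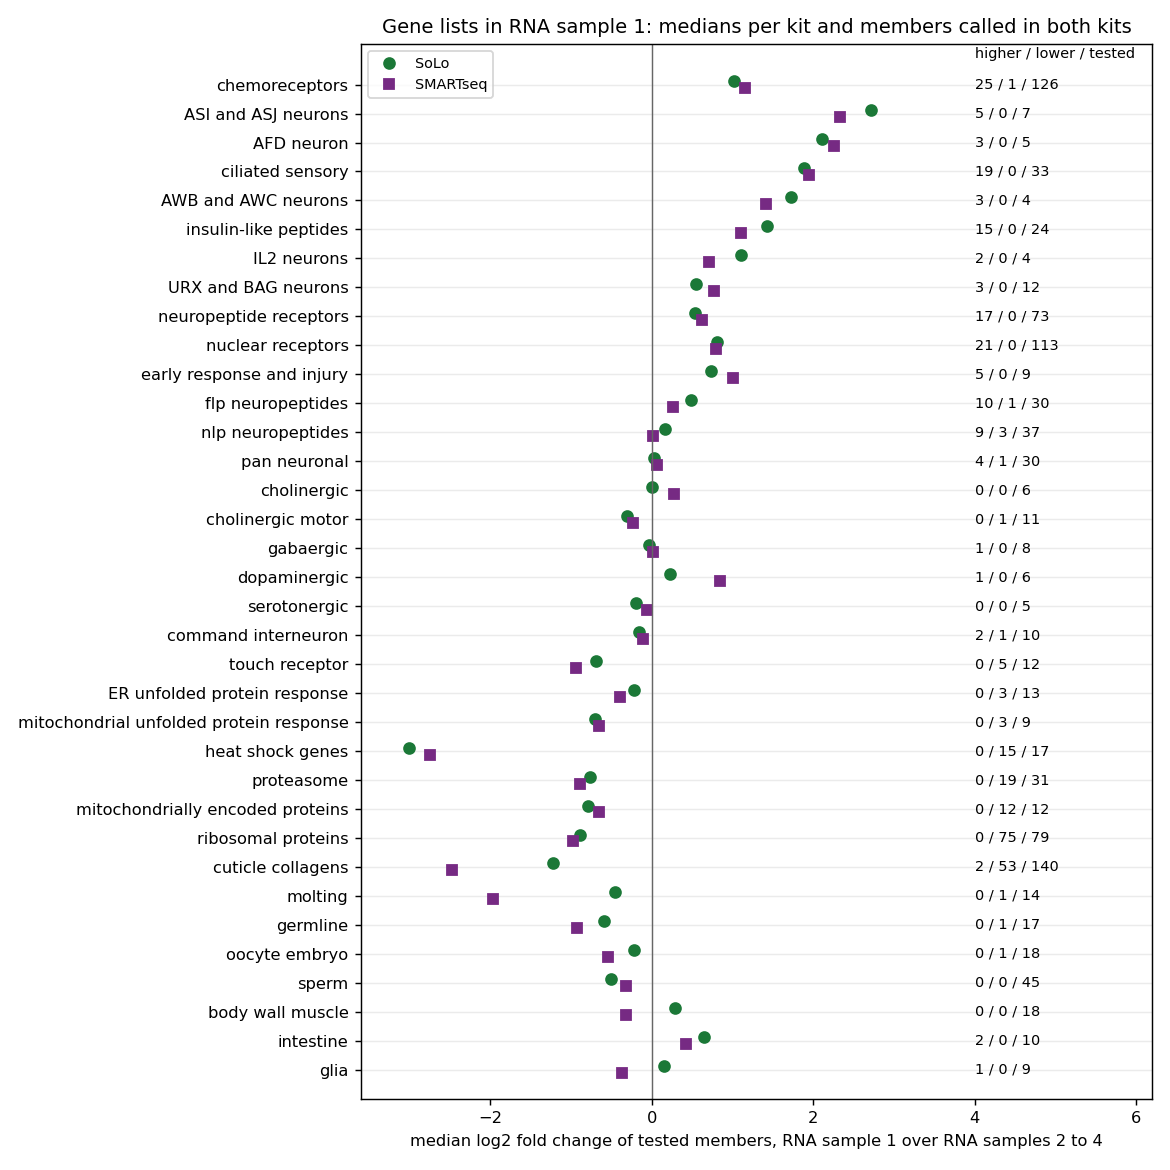
Median log2 fold change of the tested members of 35 gene lists in SoLo (circles) and SMARTseq (squares), RNA sample 1 over RNA samples 2 to 4, with the numbers of members higher, lower and tested at right. Medians of the ASI and ASJ list are 2.71 and 2.33 and those of the heat shock list are -3.01 and -2.75, while those of the pan-neuronal list are 0.03 and 0.06.

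Heat shock genes were lower in RNA sample 1. Of 17 tested, 15 were lower in RNA sample 1 and 0 were higher, with medians of -3.01 in SoLo and -2.75 in SMARTseq. The small heat shock gene hsp-16.2 (chromosome V, 1804334 to 1804957) had 54 CPM in RNA sample 1 and 1341, 1161 and 1245 CPM in RNA samples 2 to 4 in SoLo, and 238 CPM against 3608, 3055 and 3710 CPM in SMARTseq. RNA samples 2 to 4 were close together and RNA sample 1 lay far below them, with log2 fold changes of -4.53 ± 0.18 (adjusted p = 1.92e-07) and -3.86 ± 0.16 (adjusted p = 1.61e-07). The inducible chaperone hsp-70 had 165 CPM against 1894, 1518 and 1731 CPM, and 1131 CPM against 11070, 9010 and 8941 CPM. Among chaperones that cells also use without stress, hsp-1 had log2 fold changes of -1.26 ± 0.12 and -1.34 ± 0.12, the HSP90 gene daf-21 of -0.72 ± 0.11 and -1.08 ± 0.11, and hsp-110 of -2.80 ± 0.12 and -3.24 ± 0.12. The 2 members not called were the transcription factor hsf-1 itself, at 51.3 CPM against 46.7, 47.4 and 50.7 CPM in SoLo and 40.2 CPM against 61.4, 48.9 and 58.4 CPM in SMARTseq, and the myosin chaperone unc-45. The call of the co-chaperone dnj-12 was lost without RNA sample 2 or 3. The pairs hsp-16.1 and hsp-16.11, hsp-16.48 and hsp-16.49, and F44E5.4 and F44E5.5 are near-identical copies whose single values are uncertain.

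Other stress lists changed in fewer members. Of 13 genes of the unfolded protein response of the endoplasmic reticulum 3 were lower, with the BiP gene hsp-4 at 348 CPM against 1360, 1228 and 1290 CPM in SoLo and 260 CPM against 1112, 940 and 1035 CPM in SMARTseq (-1.89 ± 0.13 and -1.98 ± 0.13), the disulfide isomerase pdi-2 at -0.66 ± 0.11 and -0.77 ± 0.10, and pdi-6, lost without RNA sample 3 (-0.59 and -0.57). The factor xbp-1 had 2164 CPM against 2174, 2156 and 2298 CPM in SoLo, where the groups overlapped. Of 9 genes of the mitochondrial unfolded protein response 3 were lower, namely the chaperone hsp-60 (-1.52 ± 0.27 and -1.61 ± 0.26), hsp-6, lost without RNA sample 3 (-1.03 and -1.48), and gpd-2. Of 12 oxidative stress genes gst-7 was higher and prdx-3 and gst-1 were lower. Of 8 hypoxia genes edgeR called 0 in both kits and DESeq2 0, with 1 above 0 in log2 fold change at an unadjusted p under 0.05 in both, and hif-1 had log2 fold changes of 0.31 ± 0.10 and 0.19 ± 0.10. Genes of early response and axon injury signalling were higher in 5 of 9. The AP-1 subunit jun-1 had 341 CPM against 139, 134 and 151 CPM in SoLo and 2048 CPM against 1088, 1041 and 951 CPM in SMARTseq, with 20.8% of its exon length shared with another gene, and the CREB gene crh-1 and the kinase dlk-1 were higher too (1.03 ± 0.14 and 1.26 ± 0.15 for crh-1, 0.90 ± 0.14 and 0.96 ± 0.14 for dlk-1). The other two were fos-1, lost without RNA sample 3 (0.77 and 1.21), and pmk-3, lost without RNA sample 3 or 4. Of 9 genes of starvation and autophagy the factor hlh-30 (0.51 ± 0.10 and 0.75 ± 0.10) and sqst-1 were higher and bec-1 was lower. The call of sqst-1 was lost without any 1 of RNA samples 2 to 4 and that of bec-1 without RNA sample 3. The insulin-pathway factor daf-16 was higher (1.03 ± 0.15 and 0.46 ± 0.15), a call lost without RNA sample 3 or 4.

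Cuticle genes were lower in RNA sample 1, with large fold changes. Of 140 collagens tested, of 178 in the table, 53 were lower and 2 higher, with medians of -1.22 in SoLo and -2.47 in SMARTseq. The SoLo median is -1.11 with 4 genes that had 0 reads in RNA sample 1 or in RNA samples 2 to 4 set at their bound. A collagen read only in RNA samples 2 to 4 could pass the filter on reads, and one read only in RNA sample 1 could not. The 53 against 2 and the medians are thus in part set by the filter. The collagen rol-1 (chromosome II, 12172573 to 12176069) had 10 reads in RNA sample 1 and 366, 429 and 323 reads in RNA samples 2 to 4 in SoLo, and 7.87 CPM against 560, 439 and 447 CPM in SMARTseq. The rol-1 log2 fold changes were -5.36 ± 0.33 (adjusted p = 3.11e-06) and -5.93 ± 0.27 (adjusted p = 2.76e-07). The collagen dpy-13 had 3.88 CPM against 83.4, 61.6 and 61.1 CPM in SoLo and 17.6 CPM against 1531, 1061 and 1064 CPM in SMARTseq. Among the 12 lower genes ranked first by the smaller of both kits' fold changes, 7 were collagens, with col-138, col-175, col-91, col-49 and col-71 beside rol-1. The seventh, col-137, had 0 reads in both libraries of RNA sample 1 and 49 reads in SoLo and 207 in SMARTseq in RNA samples 2 to 4. With a floor of 3 counts over RNA sample 1, it was at least 6.01-fold lower in SoLo and at least 29.6-fold lower in SMARTseq. Higher collagens were col-98 (1.11 ± 0.19 and 1.02 ± 0.15) and col-103, whose call was lost without RNA sample 3 (0.92 in SoLo and 0.86 in SMARTseq). The other 85 collagens tested were not called, such as col-140 at 67.9 CPM against 109, 95.2 and 91.9 CPM in SoLo (adjusted p = 0.0888; 0.0481 in SMARTseq).

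Genes that follow the larval stages and molts gave few calls beside the collagens. The period homolog lin-42, a heterochronic gene whose transcripts cycle with the molts, had 849 reads in RNA sample 1 and 3557, 5922 and 4363 reads in RNA samples 2 to 4 in SoLo, and 20.7 CPM against 132 ± 10.4 CPM (SD, n = 3) in SMARTseq. Its log2 fold changes were -2.58 ± 0.16 (adjusted p = 2.75e-06) and -2.67 ± 0.18 (adjusted p = 2.77e-06). The second of the 2 lower heterochronic rows of 11 tested bears the name of the microRNA let-7, could not be matched to an annotated locus, and is given no value. The regulators lin-14 and lin-28 were not called, lin-14 at 236 CPM against 229, 211 and 210 CPM and lin-28 at 53.2 CPM against 53.5, 53.6 and 46.1 CPM in SoLo. Of 14 molting genes mlt-9 was lower, lost without RNA sample 3 (-1.38 and -2.31), although the median of the 14 was -0.46 in SoLo and -1.97 in SMARTseq. This 1 call of 14 is near the 5.91% of all genes tested that were lower. Of 6 collagens linked with the adult cuticle bli-2 and rol-1 were lower, and col-19, a marker of the adult hypodermis, had log2 fold changes of -0.37 ± 0.19 (adjusted p = 0.261) and -0.44 ± 0.17 (adjusted p = 0.0779). Of 4 yolk and 20 cell cycle genes edgeR called 0 in both kits and DESeq2 0, and 1 cell cycle gene was below 0 in log2 fold change at an unadjusted p under 0.05 in both.

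Markers of other tissues were read in all libraries at lower sums than the pan-neuronal genes. In the hypodermis list, which holds cuticle collagens, 8 of 24 members were lower and 0 higher. Its 27 genes in the table summed to 481 CPM in RNA sample 1 and 792 to 860 CPM in RNA samples 2 to 4 in SoLo, and to 2172 CPM against 6015 to 8116 CPM in SMARTseq, and 0 of them lacked reads in all libraries. Its part in the collagen result was not tested. Of 18 body wall muscle genes edgeR called 0 in both kits and DESeq2 0, with 1 below 0 in log2 fold change at an unadjusted p under 0.05 in both. Their sum was 8337 CPM against 9559 to 10029 CPM in SoLo and 14696 CPM against 16471 to 19704 CPM in SMARTseq, most of it from unc-54 and act-4. Of 10 intestinal genes the protease cpr-1 (1.71 ± 0.35 and 2.06 ± 0.32) and the lysozyme lys-1 were higher, with the call of lys-1 lost without any 1 of RNA samples 2 to 4, and the 14 in the table summed to 431 CPM against 245 to 322 CPM in SoLo and 384 CPM against 227 to 259 CPM in SMARTseq. Germline genes summed to 209 CPM against 271 to 321 CPM and 179 CPM against 301 to 432 CPM, with glh-1 lower and lost without RNA sample 3 or 4. Of 18 oocyte and embryo genes the eggshell gene perm-2 was lower (5.27 CPM against 15.7, 21.3 and 31.1 CPM in SoLo, -2.03 ± 0.32 in SMARTseq). These calls, 1 of 17 germline genes and 1 of 18 oocyte and embryo genes, are near the 5.91% of all genes tested that were lower. Of 45 sperm genes edgeR called 0 in both kits and DESeq2 0, with 1 below 0 in log2 fold change at an unadjusted p under 0.05 in both. Of 9 glial genes the homeobox gene mls-2, which is also made in neurons, was higher, lost without RNA sample 3 (1.79 and 2.07).

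Ribosomal protein genes, protein-coding genes of the mitochondrial genome and proteasome genes were lower together. Of 79 ribosomal protein genes 75 were lower and 0 higher, with medians of -0.89 in SoLo and -0.98 in SMARTseq. The 4 not called were rpl-18, rpl-24.2, rpl-25.2 and rpl-42. For rla-0, the P0 stalk protein, the levels were 826 CPM against 1732, 1952 and 1886 CPM in SoLo and 713 CPM against 1785, 1765 and 1847 CPM in SMARTseq (-1.17 ± 0.11 and -1.34 ± 0.11). Of the 75 calls, 58 were kept without each of RNA samples 2 to 4. The share of counts in ribosomal protein genes was 2.25% against 3.77% to 4.28% in SoLo and 1.41% against 2.62% to 2.95% in SMARTseq. The 12 protein-coding genes of the mitochondrial genome tested were all lower, 2 of them with calls lost without 1 of RNA samples 2 to 4, with ctb-1, cytochrome b, at 642 CPM against 1725, 1649 and 1706 CPM in SoLo and 694 CPM against 1554, 1599 and 1504 CPM in SMARTseq. Of 31 proteasome genes 19 were lower and 0 higher, with the lid subunit rpn-3 at -1.27 ± 0.16 and -1.20 ± 0.16, while DESeq2 called 11 lower, and 14 of the 19 lost their call without 1 of RNA samples 2 to 4. Of 8 ribosomal RNA genes edgeR called 0 in both kits, with 1 below 0 at an unadjusted p under 0.05 in both and 1 lower by DESeq2. Nuclear ribosomal RNA took 6.11% of counts against 6.75% to 9.14% in SoLo and 1.25% against 1.65% to 1.73% in SMARTseq. Mitochondrial ribosomal RNA took 0.49% against 0.61% to 0.712% in SoLo. In SMARTseq its share, 0.0956% against 0.0925% to 0.102%, lay within the range of RNA samples 2 to 4.

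Nuclear hormone receptors, ligand-dependent or orphan transcription factors of a large worm family, were higher in 21 of 113 genes tested and lower in 0, with medians of 0.81 and 0.80. An example is nhr-216, at 41 CPM against 2.5, 2.42 and 2.45 CPM in SoLo and 96.2 CPM against 0, 2.65 and 0.269 CPM in SMARTseq, where its log2 fold change of 6.38 ± 0.68 was 9.24 without RNA sample 3, and 7 of the 21 kept their calls without each of RNA samples 2 to 4. Of 46 ceh homeobox genes 4 were higher and of 19 histone genes 1, shares near the 6.76% of all genes tested. The ceh genes were ceh-23 at 1.23 ± 0.24 and 1.06 ± 0.24, and ceh-24, ceh-27 and ceh-36, whose calls were lost without 1 or more of RNA samples 2 to 4. The called histone gene was the linker histone his-24, at 244 CPM against 73.1, 81.4 and 85.6 CPM in SoLo and 645 CPM against 204, 188 and 189 CPM in SMARTseq. Of 42 linc RNAs edgeR called 0 in both kits and DESeq2 0, with 3 above 0 in log2 fold change at an unadjusted p under 0.05 in both, and the long non-coding RNA tts-1 was higher (1.67 ± 0.29 and 1.52 ± 0.29). Among the 12 higher genes ranked first by the same rule were 5 genes with no gene name beyond their sequence name, F13E9.15, W05F2.7, Y9C2UA.1, ZK822.6 and T09B9.3. Of these W05F2.7 (chromosome I) had 414 CPM in RNA sample 1 and 11.4, 6.04 and 7.69 CPM in RNA samples 2 to 4 in SoLo, and 1516 CPM against 39.7, 42.6 and 40.7 CPM in SMARTseq.

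The size of the difference of RNA sample 1 was tested between the kits as well. The test called 14 of 11378 genes (0.123%), which does not show that sizes were alike in the others, and list medians could differ between kits, as for the collagens. Of 1446 genes called in each kit, 4 had opposite signs, namely srt-42, tfg-1, smo-1 and ZK1236.8. The sulfate donor synthase pps-1 was higher in RNA sample 1 in both kits, at 293 CPM against 38.5, 31.6 and 39.8 CPM in SoLo and 2518 CPM against 61.9, 47.2 and 39.3 CPM in SMARTseq, and the chromatin remodelling gene nurf-1 was lower in both, at 344 CPM against 1375, 1406 and 1472 CPM and 385 CPM against 6411, 5977 and 6242 CPM.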

How the data were processed

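The values deposited by the authors are raw read counts for each gene in each of the 8 libraries. The submitters' processing notes name STAR, SAMtools, featureCounts and build WBcel235. For strand, multi-mapped reads, molecular identifiers and annotation release, settings were not given in the sources used here, so reads of overlapping genes on opposite strands cannot be told apart. Of the 1442 called genes, 68.4% had no exon overlap with another gene. Of 46748 genes, 45093, with 96.7% of counts, were matched to the Ensembl annotation of WBcel235. Library totals were 2354681 to 7099497 counts.

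Counts were tested with edgeR 4.0.16 (R 4.3.3) and its quasi-likelihood fit on the counts of all 8 libraries, with TMM, filterByExpr by kit, 1 mean per kit and 1 coefficient for RNA sample 1 per kit, and Benjamini-Hochberg adjustment over 11378 genes per kit. The filter asks for reads in about as many libraries as a kit has, so genes read in RNA sample 1 alone were not tested. CPM uses TMM-scaled totals. SE was approximated as the size of the log2 fold change divided by the root of the F statistic. For genes with 0 reads on one side, a fold is bounded with 3 counts over that side. Intervals and floors cover counting error only, since reads are not independent molecules.

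Both libraries of a number share their RNA by the labels. Deviations from the kit means correlated between libraries of the same number at 0.741, 0.342, 0.333 and 0.298 for RNA samples 1 to 4, and at 0.194, 0.0583 and 0.0694 for RNA samples 2 to 4 by themselves. These values do not single out the same number for RNA samples 3 and 4, where SoLo 3 with SMARTseq 4 gave 0.312 and SoLo 4 with SMARTseq 3 gave 0.317. Calls had to be made in each kit, so that the libraries of RNA sample 1 were not counted as replicates. The spread in the fit still comes from 6 libraries of 3 RNA samples, whose libraries enter as separate residuals.

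RNA sample 1 and the 70 gene lists were chosen with earlier results of these data known, and p-values do not account for that. Named genes are the 12 highest and the 12 lowest by the smaller of the absolute log2 fold changes of the kits, among called genes whose RNA sample 1 library lies outside the range of RNA samples 2 to 4 in both kits, and in each list up to 4 called and the 2 most abundant members. Genes outside this rule were chosen after their values were seen. In a simulation of this comparison on 11011 genes, calls were made for 52.6% of 95 genes given a 4-fold change, for 8.08% of 99 given a 2-fold change, and for 0% of 10817 left alone. Far fewer genes were changed there than were called in the data, which makes the Benjamini-Hochberg cut stricter. These shares therefore do not tell what part of real differences the comparison would find. Alternatives included DESeq2 1.42.0 and limma 3.58.1. Tables were summarised in Python 3.11.15 with SciPy 1.17.1.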

Additional observations from a re-analysis of the deposited data

Results flagged for a closer look

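The difference of RNA sample 1 itself differed between the kits for 14 genes, by edgeR's test of the difference between both coefficients with Benjamini-Hochberg adjustment over all genes tested. The log2 fold change in SoLo minus that in SMARTseq was positive for ZK180.6 (6.64), ZK180.5 (5.76), abu-8 (5.71), col-10 (3.20), col-166 (2.61), col-144 (2.56), col-14 (2.03), nurf-1 (1.97), scp-1 (1.70) and ubql-1 (1.14). All 10 were lower in RNA sample 1 in SMARTseq, and 8 of them also in SoLo by a smaller fold, while col-166 and abu-8 did not pass the test in SoLo (adjusted p = 0.319 and 0.42). For the collagen col-10 the levels in SoLo were 15.8 CPM in RNA sample 1 against 41, 50.5 and 41.9 CPM, and in SMARTseq 6.67 CPM against 186, 176 and 161 CPM. ZK180.6 had 13 reads in RNA sample 1 against 277 in RNA samples 2 to 4 in SoLo, and 1 against 2107 in SMARTseq, 905-fold lower with a 95% Clopper-Pearson interval of 162 to 35755. abu-8 had 39 reads against 166 in SoLo, and 2 against 429 in SMARTseq, 92.1-fold lower with an interval of 25.3 to 763.

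The difference was negative for srt-42 (-3.53), pps-1 (-2.66), pax-2 (-2.42) and tfg-1 (-1.45). The genes pps-1 and pax-2, a paired-domain transcription factor, were higher in RNA sample 1 in both kits, by more in SMARTseq. For tfg-1 RNA sample 1 had 126 CPM against 171, 196 and 194 CPM in SoLo and 445 CPM against 247, 228 and 253 CPM in SMARTseq, so that the kits gave opposite directions, as they did for srt-42. For RNA sample 1 these kit differences rest on 1 library per kit.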

How the results depend on the processing

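The main counts were 769 higher and 673 lower genes. They became 1829 and 1750 with 1 coefficient for both kits (an additive fit), 2237 and 2006 in limma-voom with the replicate block as a random effect (block correlation -0.0479), 1617 and 1625 on means of both kits per RNA sample, 1546 and 1581 in SMARTseq alone, and 470 and 352 when a 2-fold difference in both kits was asked for. The number itself cannot be a fixed block, since the comparison is between numbers. Leaving out 1 of RNA samples 2 to 4 gave 492 to 710 higher and 395 to 596 lower genes, and median log2 fold changes of 1.40 to 1.55 for chemoreceptors, -0.90 to -0.75 for touch receptor genes and 0.00 to 0.06 for pan-neuronal genes. Each of these leave-out fits filtered genes anew, with 11346 to 11882 tested, so the members behind a median could change. Their medians are 1 value for both kits together. Those of the chemoreceptors lay above the main medians of 1.02 in SoLo and 1.15 in SMARTseq, and are no check of them. The receptor srt-42 had a log2 fold change of 0.48 in SMARTseq alone and -1.28 as the mean of both kits. Without a filter on reads 1136 genes were higher and 661 lower, which moved the share of higher calls to 63.2% from 53.3%. DESeq2 gave 831 and 531. Separate fits per kit gave 796 and 646, of which 630 and 537 were shared with the main calls. A filter asking for 2 libraries, chosen after seeing the data, gave 932 and 660. No called gene was called in the opposite direction under any of the 17 alternatives. The settings of each kit alone, of a 2-fold difference and of genes with no exon overlap reuse the main fit. They could not have reversed a call. Of 147 named called genes, 16, 36 and 30 lost their call without RNA sample 2, 3 and 4, 14 in separate fits per kit and 13 in DESeq2.

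At these depths and with 1 RNA sample against 3, the simulated fit found few 2-fold differences. Far fewer genes were changed in it than were called here, so it cannot tell how many differences were missed. Uncalled genes are not shown to be alike.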
